A study of Mus musculus with 39 samples.

Results

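The testes described here came from 2-week-old prKO mice, which carried the Sf1:Cre transgene together with floxed Prkar1a alleles (Sf1:Cre,Prkar1afl/fl), and from wild-type (WT) mice of the same age. The 4 prKO and 8 WT arrays were chosen by their titles and are 12 of the 39 arrays of the study, each a biological replicate of RNA from whole testis. The study also profiled Amh:Cre,Prkar1afl/fl (srKO) and Cyp11a1:Cre,Prkar1afl/fl (lrKO) testes, and all 4 genotypes at 2 months; 4 srKO arrays at 2 weeks, and 3 prKO and 8 WT arrays at 2 months, are used below for comparison. The WT animals are described as littermates, and no label says whether they carried floxed alleles or a Cre. Sf1:Cre follows the gene Nr5a1 (Sf1), which is expressed by the somatic cell precursors shared by gonad and adrenal cortex and by pituitary gonadotropes, so the testis need not be the only organ in which prKO mice lost Prkar1a. Values are log2 intensities that the authors normalized with RMA. An array has no read depth, and precision depends on the number of arrays, the spread between them and the signal over background.

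Prkar1a encodes the type 1 alpha regulatory subunit of protein kinase A (PKA), which holds the catalytic subunits inactive until cAMP binds. In the testis cAMP relays luteinizing hormone in Leydig cells, where PKA raises cholesterol import and steroid synthesis, and follicle-stimulating hormone in Sertoli cells, the nurse cells of the germ line. The adrenal cortex uses the same relay for adrenocorticotropic hormone. Free PKA phosphorylates the transcription factor CREB, whose early targets include nuclear receptors, phosphatases and phosphodiesterases.

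Sertoli and germ cell genes were bright in both genotypes, with a median of 10.33 in WT for Wt1 and 11.48 for the germ cell helicase gene Ddx4. The RNA extraction label names the adrenal gland, whereas the tissue and source labels name testis. The adrenal medulla genes Th, Dbh and Pnmt, which make catecholamines, lay between 4.23 and 5.57 in all 12 arrays, and 0 of 6 tested medulla genes were called by limma (1 at an unadjusted p below 0.05). Testing was limited to genes with a group mean above the 25th percentile of all values, 4.62, in at least 1 group of the study.

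The WT arrays were not alike. WT replicate 4 had the lowest mean correlation with the other WT arrays (0.966, others 0.977 to 0.984, across genes, which are not independent replicates). It was the highest of the 8 WT arrays in 701 of the 1501 genes that were called higher in prKO, and in 4185 of all 19007 genes tested. Peritubular myoid genes were raised in it: the smooth muscle myosin gene Myh11 had 11.87 there and at most 10.58 in the other WT arrays. WT replicates 1 to 4 and 5 to 8 also differed, and the means of replicates 1 to 4 were above those of 5 to 8 in 1316 of the 1501 genes called higher and in 10755 of all 19007 genes, whereas the means of 5 to 8 were above in 383 of the 493 genes called lower. No label says what set these arrays apart. Results are therefore given against all 8 WT arrays, and it is said where a named gene lost its call against one WT set or where its call changed without WT replicate 4.

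Against all WT arrays, 1501 of 19007 genes (7.9%) were called higher in prKO and 493 (2.59%) lower, by limma with Benjamini-Hochberg adjusted p below 0.05. The calls included 155 genes at least 2-fold higher and 10 at least 2-fold lower. A call against all WT arrays and against each WT set was made for 610 genes (3.21%) higher and 46 (0.242%) lower. All 4 prKO arrays lay above all 8 WT arrays in 811 genes (4.27%) and below them in 280 (1.47%). Without WT replicate 4 the calls were 2146 higher (11.3%) and 973 lower (5.12%). These shares of all genes are given for reading the counts of each gene list, as a description only. The lists were chosen with earlier results of these data known, so a count above these shares does not test a list. The median log2 change over all genes tested was -0.01. In whole testis, fewer cells of a type and less RNA per cell cannot be told apart.

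**Figure D1:**
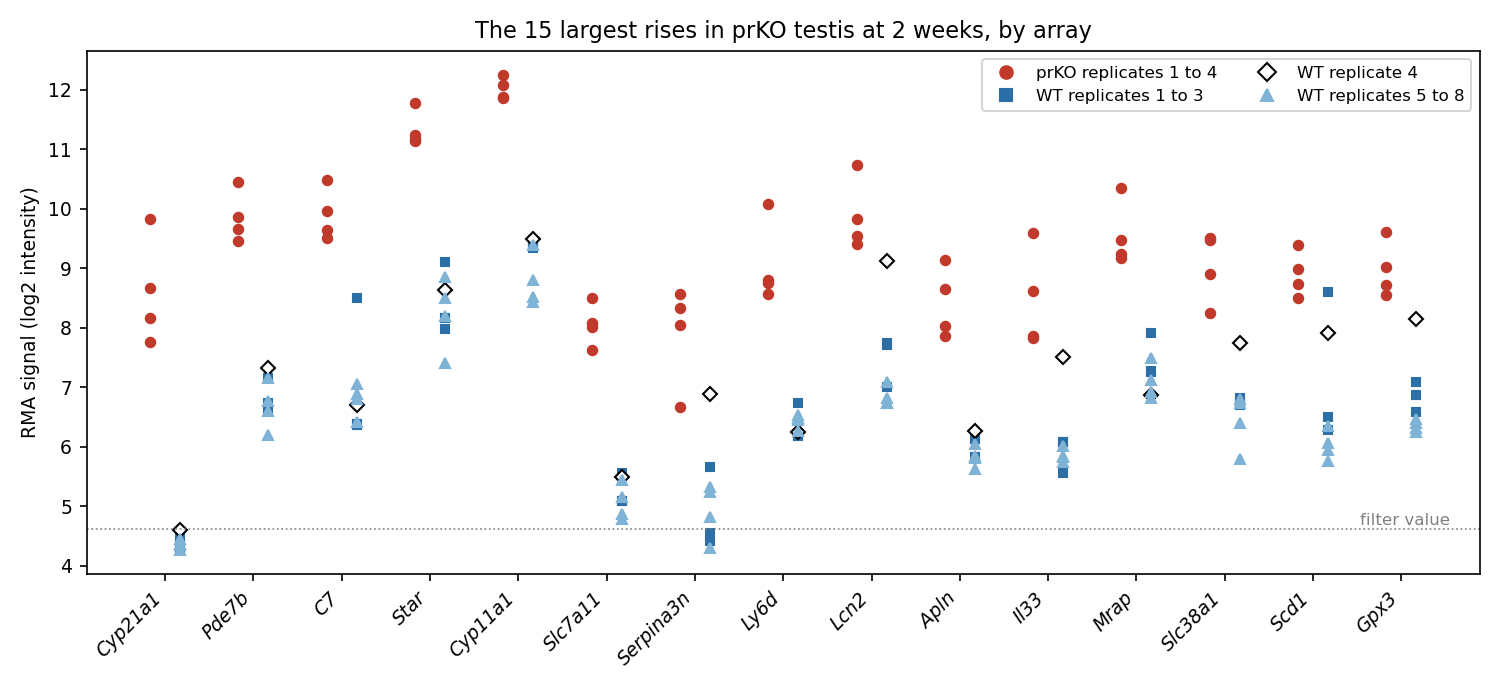
RMA signal (log2 intensity) of the 15 genes with the largest rises among genes called in prKO, 1 point per array, with prKO left of WT for each gene and the filter value as a dotted line. In 13 of the 15 genes the prKO arrays lie above all WT arrays; in Serpina3n prKO replicate 3 (6.67) lies below WT replicate 4 (6.88), and in Scd1 the lowest prKO array (8.51) lies below a WT array (8.61).

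Prkar1a itself had 8.04, 8.28, 8.33 and 8.17 in the prKO arrays, against a WT lowest, median and highest of 8.84, 8.97 and 9.14. All prKO arrays lay below all WT arrays, and the fall was 1.71-fold (log2 change -0.78 ± 0.07 SE, limma adjusted p = 4.5e-07). It was -0.68 against WT replicates 1 to 4 and -0.88 against 5 to 8. Whole testis holds transcript of every cell type, including germ cells, in which Sf1:Cre is not active, and the place of the deleted exons in it is not known here, so the value does not measure recombination.

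Of 13 genes for PKA subunits, inhibitors and anchors, 3 rose and 1, Prkar1a, fell. The type 2 beta regulatory subunit gene Prkar2b had 10.18, 10.28, 10.28 and 10.40 in prKO, against 9.14, 9.47 and 9.67 as lowest, median and highest WT value, and rose 1.79-fold (0.84 ± 0.12, limma adjusted p = 6.4e-05). Every prKO array was above every WT array, and the rise was called against both WT sets. The PKA inhibitor gene Pkia (0.61 ± 0.15, adjusted p = 0.013) and the catalytic subunit gene Prkaca (0.29 ± 0.06, adjusted p = 0.0046) also rose, but neither was called with WT replicates 1 to 4 as the only controls (adjusted p = 0.19 and 0.055). The other catalytic and regulatory subunit genes did not pass the test: Prkacb was at 0.12 ± 0.08, Prkar1b at 0.07 ± 0.12 and Prkar2a at 0.02 ± 0.13.

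Phosphodiesterases break down cAMP, and some are themselves induced by PKA. Of 16 such genes 7 rose and 0 fell, 4 of them against both WT sets, and the list's score, the mean over its genes of the difference from the WT mean, was 0.35 to 0.71 in the prKO arrays and at most 0.07 in WT. Pde7b, a cAMP-specific enzyme, had 9.87, 9.66, 9.46 and 10.46 in prKO, against 6.19, 6.75 and 7.32 as lowest, median and highest WT value, and rose 8.21-fold (3.04 ± 0.20, limma adjusted p = 6.8e-09). The lowest prKO array was more than 2 log2 units above the highest WT array. Pde10a, which acts on cAMP and cGMP, had 8.72, 8.26, 8.47 and 8.71 in prKO, against 6.13, 6.45 and 6.93 in WT, and rose 4.09-fold (2.03 ± 0.14, adjusted p = 7.5e-09). Pde4d, another cAMP-specific enzyme, rose 1.67-fold (0.74 ± 0.11) with all prKO arrays above WT, and Pde3a rose 1.98-fold (0.98 ± 0.19) with 3 of 4 above. Pde4b (0.45 ± 0.10), Pde1a (0.70 ± 0.17) and Pde2a (0.33 ± 0.10) were called against all WT but not against WT replicates 1 to 4 alone. Pde8a (0.21 ± 0.15, adjusted p = 0.41) and Pde8b (-0.19 ± 0.10, adjusted p = 0.26), the high-affinity cAMP enzymes known from steroid-producing cells, did not pass the test. With WT replicates 1 to 4 as the only controls Pde8a was called higher (0.43, limma adjusted p = 0.024).

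Among 19 fast CREB response genes, 6 rose and 0 fell, 4 of them against both WT sets. Nr4a1 (Nur77), an orphan nuclear receptor that luteinizing hormone induces within Leydig cells, had 8.90, 8.75, 8.54 and 9.02 in prKO, against 7.36, 7.68 and 8.34 as lowest, median and highest WT value. It rose 2.14-fold (1.10 ± 0.13, limma adjusted p = 9.5e-06), and no prKO array overlapped WT. Its relative Nr4a3 (0.99 ± 0.16), the phosphatase gene Dusp1 (0.74 ± 0.12) and the kinase gene Sik1 (0.65 ± 0.12) rose in the same way, each with all prKO arrays above WT. Dusp4 (0.39 ± 0.10) and Cebpb (0.38 ± 0.11) rose but were not called against WT replicates 1 to 4 alone. Other genes of the list did not pass the test: Fos was at 0.06 ± 0.11, Egr1 at -0.03 ± 0.13, Nr4a2 at 0.26 ± 0.11 (called without WT replicate 4, adjusted p = 0.04), Per1 at 0.16 ± 0.10 and Crem at -0.24 ± 0.20. With WT replicates 5 to 8 as the only controls Crem was called lower (-0.53, limma adjusted p = 0.025). Some members rose and others did not, and the score of the whole list overlapped WT, with 0.18 to 0.33 in prKO and 0.32 in WT replicate 4.

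Promoter windows are shown for 1 gene of each of 3 groups with members called higher, the CREB response, side-chain cleavage and cholesterol synthesis. All windows shown held matches, and the windows left out, of Pde7b and a second Cyp11a1 start, held none. The windows shown are the 250 bases before the RefSeq start (GRCm38.p6, plus strand), with matches to the motifs searched in capitals. The motifs, searched on both strands, were the cAMP response element TGACGTCA, its core TGACG, the NR5A1 sites AAGGTCA and AAGGCCA, the sterol regulatory element TCACCCCAC, and CCAAT; a core inside a full element counts for both. The table held 4 of the 8 genes whose promoters were looked for.
Nr4a1, chr15:101266596-101266845: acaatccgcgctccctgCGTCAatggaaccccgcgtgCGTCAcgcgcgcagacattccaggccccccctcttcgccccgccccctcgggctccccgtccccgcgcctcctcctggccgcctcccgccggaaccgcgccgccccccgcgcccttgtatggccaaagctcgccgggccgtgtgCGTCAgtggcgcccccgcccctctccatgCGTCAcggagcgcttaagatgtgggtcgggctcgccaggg
Cyp11a1, chr9:57997774-57998023: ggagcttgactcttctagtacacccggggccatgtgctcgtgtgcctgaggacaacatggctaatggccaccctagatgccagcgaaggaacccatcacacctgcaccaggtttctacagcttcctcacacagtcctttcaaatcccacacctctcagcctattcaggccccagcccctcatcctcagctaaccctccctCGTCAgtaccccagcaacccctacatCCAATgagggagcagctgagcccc
Hmgcs1, chr13:119690101-119690350: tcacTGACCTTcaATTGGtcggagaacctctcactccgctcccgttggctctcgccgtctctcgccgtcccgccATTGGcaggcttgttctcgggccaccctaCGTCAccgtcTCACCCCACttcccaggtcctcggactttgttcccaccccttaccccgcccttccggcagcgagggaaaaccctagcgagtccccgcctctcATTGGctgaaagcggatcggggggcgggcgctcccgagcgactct
The Nr4a1 window held the core 4 times, as CGTCA, ending 229, 209, 65 and 36 bases before the start. The Cyp11a1 window of this RefSeq start held the core 46 bases before the start and a CCAAT that ended 20 bases before it. The Hmgcs1 window held the sterol regulatory element at 137 to 129 bases before the start, the core at 147 to 143, an NR5A1 site as TGACCTT at 246 to 240, and CCAAT 3 times as ATTGG. The window of a second Cyp11a1 start, chr9:58014702-58014951, and the Pde7b window held no match. Which Cyp11a1 start is used in these testes was not tested. Of all 32851 promoters in the table, 17.8% held the core, 9.09% an NR5A1 site, 0.496% the sterol element and 33.9% a CCAAT. Counted by gene, with a match at any of its starts, the shares among 14664 tested genes were 25.55%, 9.47%, 0.655% and 38.83%. Among the 112 genes at least 2-fold higher in prKO that the table held, counted by gene as well, these shares were 13.4%, 17.9%, 0% and 37.5%. The full cAMP response element was found for 2.53% of the tested genes and 0.893% of the 112. These shares describe letters in these windows and not binding.

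Steroid synthesis starts when STAR carries cholesterol into mitochondria, where CYP11A1 cuts its side chain with electrons from ferredoxin. Of 8 genes for this step 4 rose and 0 fell. Star had 11.24, 11.14, 11.17 and 11.78 in prKO, against 7.40, 8.34 and 9.11 as lowest, median and highest WT value, and rose 7.89-fold (2.98 ± 0.23, limma adjusted p = 6.4e-08). Cyp11a1, whose promoter window above belongs to only 1 of its starts, had 12.07, 11.85, 11.88 and 12.26 in prKO, against 8.43, 9.36 and 9.50 in WT, and rose 7.60-fold (2.93 ± 0.18, adjusted p = 2.6e-09). With its probe sets averaged, in place of the brightest one, the log2 change was 1.71. The ferredoxin gene Fdx1 had 8.52, 8.33, 8.44 and 9.31 in prKO, against 7.04, 7.27 and 7.55 in WT, and rose 2.54-fold (1.34 ± 0.14). In all 3 genes every prKO array was above every WT array. Stard5, which binds sterols in the cytosol, rose less (0.45 ± 0.12) and had no call against WT replicates 1 to 4 alone. Tspo, a protein of the outer mitochondrial membrane, was at 0.21 ± 0.07 (adjusted p = 0.068) and did not pass the test.

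Androgen pathway genes followed, with 9 of 15 called higher, 0 lower and 5 higher against both WT sets. Hsd3b1 makes progesterone from pregnenolone; it had 9.71, 9.40, 9.70 and 10.19 in prKO, against 7.64, 8.10 and 8.36 as lowest, median and highest WT value, and rose 3.13-fold (1.65 ± 0.13, limma adjusted p = 7.3e-08). Cyp17a1, which makes the androgen precursor, had 11.42, 11.23, 11.65 and 11.76 in prKO, against 8.58, 9.85 and 10.35 in WT, and rose 3.64-fold (1.86 ± 0.34, adjusted p = 0.0012). Its WT arrays spanned almost 2 log2 units, yet none reached the prKO arrays. Hsd3b6, the isoenzyme of adult Leydig cells, had 8.10, 8.13, 8.49 and 8.00 in prKO, against 7.11, 8.70 and 9.90 in WT, and did not pass the test (-0.51 ± 0.45, adjusted p = 0.51). Hsd17b3, which makes testosterone, was at 0.65 ± 0.24 (adjusted p = 0.091), and was called without WT replicate 4 (adjusted p = 0.032) and against WT replicates 5 to 8 (adjusted p = 0.04). The 2 isoenzyme genes of the Hsd3b family are close in sequence, and whether their probe sets take up signal of each other was not tested.

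Further enzymes of the androgen list rose as well. Cyp1b1, which hydroxylates steroids, had 8.21, 7.98, 8.00 and 8.71 in prKO, against 5.88, 6.24 and 7.22 in WT, and rose 3.65-fold (1.87 ± 0.20, limma adjusted p = 4.2e-06). Akr1c14, a hydroxysteroid dehydrogenase, rose 1.55-fold (0.63 ± 0.09) with all prKO arrays above WT. Hsd17b7 (0.84 ± 0.14), which serves both estrogen and cholesterol synthesis, rose in the same way. Sult1e1, which inactivates estrogen by sulfation, was 1.07 ± 0.20 higher, but 2 of the 4 prKO arrays lay within the WT range and the call was lost with WT replicates 1 to 4 as the only controls (0.84, adjusted p = 0.059). Hsd17b10, Hsd17b11 and Hsd17b12 rose by 0.34 to 0.40, and none of these 3 was called against WT replicates 1 to 4 alone.

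Of 11 adrenal cortex genes 3 rose and 0 fell. Cyp21a1, the 21-hydroxylase that makes precursors of corticosterone and aldosterone in the adrenal cortex, had 8.68, 7.77, 8.16 and 9.83 in prKO, against 4.26, 4.36 and 4.61 as lowest, median and highest WT value. All WT arrays lay below the filter value of 4.62, so the rise was at least 15.9-fold (4.22 ± 0.23, limma adjusted p = 4.2e-10), the largest log2 change among the genes called higher. The mouse genome holds a pseudogene copy of Cyp21a1, and whether the probe set separates them was not tested. Mrap, the partner that brings the adrenocorticotropic hormone receptor to the cell surface, had 9.48, 9.18, 9.24 and 10.34 in prKO, against 6.82, 7.19 and 7.92 in WT, and rose 5.09-fold (2.35 ± 0.20, adjusted p = 2e-07). Hsd11b1, which regenerates active glucocorticoid, rose by 0.48 ± 0.10 (adjusted p = 0.0029), with all prKO arrays above WT, but was not called with WT replicates 1 to 4 as the only controls (adjusted p = 0.072). The last enzymes of corticosterone and aldosterone synthesis did not pass the test: Cyp11b1 had 4.72, 5.13, 4.97 and 5.35 in prKO, against 4.63, 4.80 and 5.02 in WT (0.23 ± 0.09, adjusted p = 0.11), and Cyp11b2 had at most 4.85 in prKO and 4.96 in WT. The defining cortex genes were thus not all present: Cyp21a1 and Mrap were bright, whereas Cyp11b1 and Cyp11b2 stayed near the filter value.

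**Figure D2:**
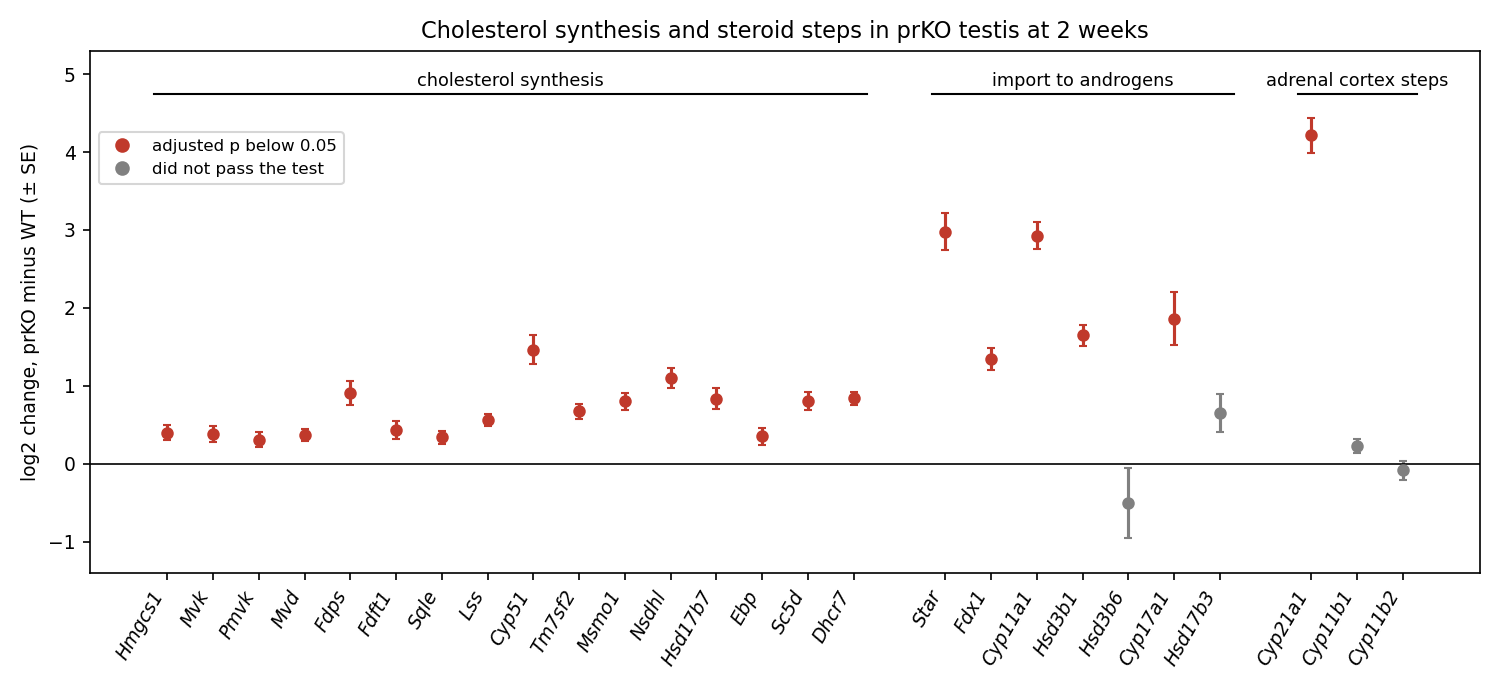
log2 change of prKO minus WT at 2 weeks (y axis, bars are SE) for cholesterol synthesis enzymes in pathway order, for import and androgen steps, and for adrenal cortex steps, with genes past the threshold in red. The 16 cholesterol enzymes shown lie between 0.31 and 1.47, Star and Cyp11a1 near 3, and Hsd3b6, Hsd17b3, Cyp11b1 and Cyp11b2 did not pass the test.

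Cells make cholesterol from acetyl-CoA through mevalonate, squalene and lanosterol. Of 17 genes of this route 15 rose and 1 fell, 9 of them higher against both WT sets, and the median log2 change was 0.43, against -0.01 over all genes. All 4 prKO scores (0.41 to 0.84) lay above all WT scores (at most 0.16). The 2 largest changes, in Cyp51 and Nsdhl, were in steps after lanosterol. Cyp51, the lanosterol demethylase, had 8.99, 8.77, 9.00 and 9.73 in prKO, against 7.13, 7.73 and 8.09 as lowest, median and highest WT value, and rose 2.76-fold (1.47 ± 0.18, limma adjusted p = 2.1e-05). Nsdhl, which removes the methyl groups of the sterol ring, had 10.06, 9.87, 9.90 and 10.47 in prKO, against 8.68, 8.92 and 9.41 in WT, and rose 2.15-fold (1.10 ± 0.13). Dhcr7, the last enzyme of the route, rose 1.79-fold (0.84 ± 0.08, adjusted p = 1.2e-06), Sc5d 1.75-fold, Msmo1 1.74-fold and Tm7sf2 1.59-fold. In these genes no prKO array overlapped WT.

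Among the steps before lanosterol the changes ran over 0.31 to 0.91. Hmgcs1, whose promoter is shown above, had 11.29, 11.37, 11.24 and 11.75 in prKO, against 10.85, 11.01 and 11.28 in WT, and rose 1.32-fold (0.40 ± 0.10, limma adjusted p = 0.011); 1 prKO array lay within the WT range. Hmgcs1, Mvk, Fdft1 and Sqle, and Ebp, which acts after lanosterol, were called against all WT arrays but not against WT replicates 1 to 4 alone. Fdps (0.91 ± 0.15), Lss (0.57 ± 0.08), Mvd (0.37 ± 0.08) and Pmvk (0.31 ± 0.09) had all prKO arrays above WT, and of these 4 only Pmvk lost its call against one WT set (replicates 5 to 8, adjusted p = 0.083). Ggps1, which leads to protein prenylation and not to sterols, did not pass the test (0.14 ± 0.08). The 1 member that fell was Lbr (-0.25 ± 0.07, adjusted p = 0.035), a nuclear envelope protein whose sterol reductase activity is shared with Tm7sf2, and it was called against neither WT set alone (adjusted p = 0.12 and 0.058).

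Sterol uptake and storage genes rose in part, with 8 of 22 called higher and 0 lower. Scarb1, the receptor that takes cholesterol ester from high-density lipoprotein, had 10.67, 10.57, 10.47 and 10.76 in prKO, against 9.59, 9.78 and 9.93 as lowest, median and highest WT value, and rose 1.80-fold (0.85 ± 0.07, limma adjusted p = 1.8e-07). Cd36, a scavenger receptor and fatty acid carrier, had 8.09, 8.02, 7.97 and 8.51 in prKO, against 5.42, 6.07 and 7.01 in WT, and rose 3.98-fold (1.99 ± 0.24). Nceh1, which frees stored cholesterol, rose 1.51-fold, and Apoe, a lipoprotein component, 1.43-fold; all 4 of these were called against both WT sets. Lipa, Npc1, Npc2 and Insig1, of lysosomal sterol release and sterol sensing, rose by 0.28 to 0.53 and were not called against WT replicates 1 to 4 alone. The sterol-responsive transcription factor genes Srebf2 (0.10 ± 0.12) and Srebf1 (0.05 ± 0.10), the exporter gene Abca1 (-0.07 ± 0.07) and the lipase gene Lipe (0.05 ± 0.07) did not pass the test.

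Of 14 genes of lipid droplets and fatty acid synthesis, 7 rose and 0 fell. Scd1, the stearoyl-CoA desaturase, had 9.00, 8.73, 8.51 and 9.39 in prKO, against 5.75, 6.31 and 8.61 as lowest, median and highest WT value, and rose 4.69-fold (2.23 ± 0.42, limma adjusted p = 0.0015). One WT array, replicate 2, reached the prKO range, and against WT replicates 1 to 4 alone Scd1 was not called (1.58, adjusted p = 0.051). The desaturase gene Fads1 had 11.18, 10.71, 10.72 and 11.23 in prKO, against 9.89, 10.11 and 10.47 in WT, and rose 1.81-fold (0.85 ± 0.12). Fads2 rose 1.45-fold, Acsl4, which activates arachidonate and serves Star induction in Leydig cells, 1.72-fold, and Acly, which supplies acetyl-CoA, 1.32-fold; these and Fads1 were called against both WT sets. Elongase genes rose too, Elovl6 by 0.91 ± 0.23 and Elovl5 by 0.40 ± 0.09, but not against WT replicates 1 to 4 alone. Fasn (0.09 ± 0.07) and the droplet coat gene Plin2 (0.24 ± 0.10) did not pass the test.

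Genes of cystine uptake and glutathione defence were called higher in 10 of 20 and lower in 0. Slc7a11, which imports cystine for glutathione, had 8.08, 7.63, 8.01 and 8.50 in prKO, against 4.79, 5.13 and 5.56 as lowest, median and highest WT value, and rose 7.32-fold (2.87 ± 0.18, limma adjusted p = 3.1e-09). With its probe sets averaged, in place of the brightest one, the log2 change was 1.56. Its partner chain gene Slc3a2 rose 1.29-fold (0.37 ± 0.07), with all prKO arrays above WT. Gpx3, the secreted glutathione peroxidase, had 9.02, 8.72, 8.56 and 9.61 in prKO, against 6.25, 6.52 and 8.14 in WT, and rose 4.64-fold (2.21 ± 0.26). The highest WT value of Gpx3 was that of replicate 4. Hmox1 rose by 0.57 ± 0.11 against both WT sets, whereas Nqo1 (0.79 ± 0.15), Gpx1 (0.55 ± 0.11) and Cat (0.41 ± 0.13) were not called against WT replicates 1 to 4 alone. The genes of glutathione synthesis itself, Gclc (0.01 ± 0.05) and Gclm (-0.13 ± 0.05), did not pass the test.

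Slc38a1, a glutamine carrier that was among the 15 largest rises, had 8.90, 9.48, 9.51 and 8.26 in prKO, against 5.79, 6.73 and 7.74 as lowest, median and highest WT value, and rose 4.99-fold (2.32 ± 0.26, limma adjusted p = 4.4e-06). In this gene prKO replicate 4, the highest array for most other large rises, was the lowest of the 4. Of 18 genes of the amino acid stress response 4 rose and 0 fell, and 1 was called against both WT sets. Its regulator Atf4 (-0.04 ± 0.09) and its targets Asns (0.18 ± 0.08), Trib3 (-0.17 ± 0.10) and Chac1 (0.05 ± 0.10) did not pass the test. These 4 are among the 14 members that were not called. The score of the list was above all WT arrays in all 4 prKO arrays (0.06 to 0.17, against at most 0.04 in WT).

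Several of the largest rises were secreted or surface proteins. Of 16 complement genes 7 rose and 0 fell. C7, a component of the membrane attack complex, had 9.51, 9.96, 9.64 and 10.49 in prKO, against 6.36, 6.75 and 8.49 as lowest, median and highest WT value, and rose 8.08-fold (3.01 ± 0.31, limma adjusted p = 1.9e-06); WT replicate 2 was the high WT array. The regulators Cd55 (1.98-fold, 0.98 ± 0.16) and Serping1 (1.75-fold, 0.80 ± 0.13), the component gene C4b (1.98-fold, 0.98 ± 0.19) and the C1q chain gene C1qb (1.74-fold, 0.80 ± 0.15) rose against both WT sets. C4b has a near-identical neighbour in the mouse genome, so its signal may be shared. C1qa, another C1q chain, did not pass the test (0.16 ± 0.10, adjusted p = 0.31).

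Serpina3n, an acute-phase protease inhibitor, had 8.05, 8.33, 6.67 and 8.56 in prKO, against 4.29, 5.03 and 6.88 as lowest, median and highest WT value, and rose 6.76-fold (2.76 ± 0.46, limma adjusted p = 0.00047). Lcn2, an iron-carrier-binding protein of the acute phase, had 9.83, 9.41, 9.54 and 10.74 in prKO, against 6.73, 7.04 and 9.13 in WT, and rose 5.68-fold (2.51 ± 0.40, adjusted p = 0.0003). Il33, an alarmin cytokine, had 8.61, 7.83, 7.87 and 9.59 in prKO, against 5.56, 5.93 and 7.50 in WT, and rose 5.26-fold (2.39 ± 0.30). WT replicate 4 was the highest WT array in all 3 genes, and only in Serpina3n did it reach the prKO range. Ly6d, a small membrane-anchored surface protein, had 8.80, 8.56, 8.75 and 10.09 in prKO, against 6.19, 6.36 and 6.73 in WT, and rose 6.31-fold (2.66 ± 0.19, adjusted p = 1.7e-08).

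Angiogenic factors were called higher in 4 of 12 genes, all 4 against both WT sets. Apln, the ligand of the apelin receptor of vessels, had 8.65, 7.86, 8.03 and 9.15 in prKO, against 5.63, 5.94 and 6.26 as lowest, median and highest WT value, and rose 5.50-fold (2.46 ± 0.18, limma adjusted p = 2.3e-08). Angptl4, an inhibitor of lipoprotein lipase, rose 1.63-fold, Fgf2 1.61-fold and the vessel factor Angpt1 1.53-fold, each with all prKO arrays above WT. Vegfa did not pass the test (0.16 ± 0.12, adjusted p = 0.43). Endothelial marker genes were called higher in 7 of 14, 3 of them against both WT sets: Pecam1 was 0.73 ± 0.13, Kdr 0.66 ± 0.12 and Eng 0.58 ± 0.11 higher, each with 3 of 4 prKO arrays above WT. Cdh5, which defines endothelial junctions, did not pass the test (0.32 ± 0.18, adjusted p = 0.26), except against WT replicates 5 to 8 alone (0.60, limma adjusted p = 0.019). The prKO range of the endothelial score, 0.22 to 0.46, took in WT replicate 4 (0.33). The part of vessel cells in the other results was not tested.

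**Figure D3:**
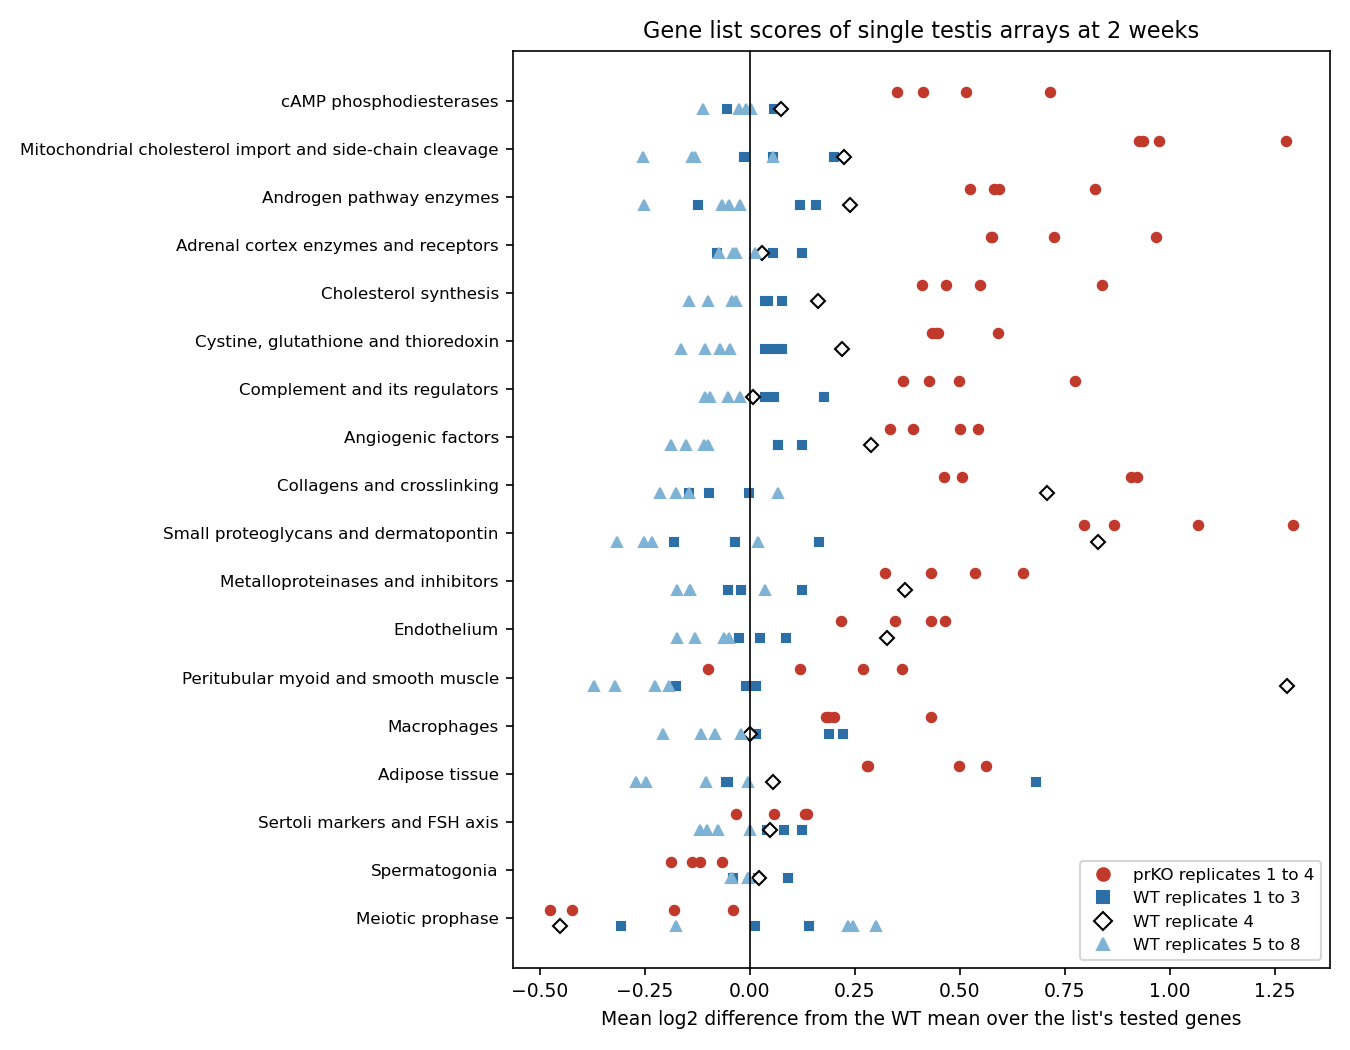
Score of each gene list (x axis, mean log2 difference from the WT mean over the list's tested genes), 1 point per array, with prKO above WT for each list. The prKO points of the upper 8 lists lie right of all WT points, WT replicate 4 lies within the prKO range for collagens (0.71) and at 1.28 for myoid genes, and the spermatogonial scores of prKO (-0.19 to -0.07) lie left of all WT scores.

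Extracellular matrix genes rose broadly, and WT replicate 4 moved the same way. Of 23 genes for collagens and crosslinking 18 rose and 0 fell, 10 of them against both WT sets, with a median log2 change of 0.74. Without WT replicate 4 the count was 21 and the median 0.86. The prKO scores were 0.92, 0.46, 0.51 and 0.91, WT replicate 4 had 0.71 and the other WT arrays at most 0.07. Col4a1, a basement membrane chain, had 9.50, 9.32, 9.21 and 9.65 in prKO, against 8.10, 8.36 and 8.97 as lowest, median and highest WT value, and rose 2.03-fold (1.02 ± 0.12, limma adjusted p = 6.1e-06); its partner Col4a2 rose 1.80-fold, and no prKO array of either gene overlapped WT. The crosslinking enzyme gene Lox had 9.39, 8.70, 9.04 and 10.03 in prKO, against 7.08, 7.61 and 8.98 in WT, and rose 3.06-fold (1.61 ± 0.27, adjusted p = 0.00042), with 1 prKO array below the highest WT value. Loxl1 (0.82 ± 0.11) and elastin, Eln (0.73 ± 0.12), had all prKO arrays above WT.

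The interstitial collagens overlapped WT replicate 4. Col1a1 had 12.39, 11.92, 11.94 and 12.31 in prKO, against 11.00, 11.35 and 12.16 as lowest, median and highest WT value, and rose 1.68-fold (0.75 ± 0.16, limma adjusted p = 0.0034). Without WT replicate 4 the adjusted p was 2.1e-05. Col3a1 rose by 0.74 ± 0.17 and Col12a1 by 1.62 ± 0.36, and neither was called with WT replicates 1 to 4 as the only controls (adjusted p = 0.12 and 0.13). Col6a5, a chain of the collagen 6 family, had 9.90, 9.44, 9.45 and 9.88 in prKO, against 7.08, 7.35 and 9.22 in WT, and rose 4.28-fold (2.10 ± 0.28, adjusted p = 4.6e-05).

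Small proteoglycans bind collagen fibrils and shape their width, and 9 of 11 genes of this group rose and 0 fell, 7 of them against both WT sets. Without WT replicate 4 the count was 10 and the median log2 change 1.00. Dpt (dermatopontin) had 10.91, 10.77, 10.62 and 11.01 in prKO, against 7.55, 8.63 and 10.45 as lowest, median and highest WT value, and rose 4.51-fold (2.17 ± 0.39, limma adjusted p = 0.00088; 1.58 against WT replicates 1 to 4 and 2.77 against 5 to 8). Lum had 8.95, 8.74, 8.54 and 9.29 in prKO, against 6.53, 6.96 and 8.85 in WT, and rose 3.23-fold (1.69 ± 0.31). Ogn had 11.62, 11.49, 11.54 and 12.03 in prKO, against 10.08, 10.48 and 10.95 in WT, and rose 2.38-fold (1.25 ± 0.14). The prKO arrays stood clear of WT in Dpt, Ogn and Omd (0.95 ± 0.15), and 2 of the 4 lay within the WT range in Lum, Bgn (0.54 ± 0.10) and Dcn (0.45 ± 0.12). Dcn had no call with WT replicates 1 to 4 as the only controls (0.26, adjusted p = 0.3). Aspn (1.34 ± 0.27) had 1 prKO array above WT. Versican, Vcan, a large proteoglycan, was at 1.14 ± 0.37 and was called without WT replicate 4 (1.42, adjusted p = 0.0004) and against WT replicates 5 to 8 (1.49, adjusted p = 0.0016).

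Matrix metalloproteinases and their inhibitors were called higher in 7 of 14 genes and lower in 0, 6 of them against both WT sets; without WT replicate 4 the count was 7 and the median log2 change 0.40. Mmp2, a gelatinase, had 10.98, 10.79, 10.65 and 11.29 in prKO, against 8.88, 9.22 and 10.20 as lowest, median and highest WT value, and rose 3.13-fold (1.65 ± 0.19, limma adjusted p = 8.9e-06). Mmp19, a metalloproteinase with basement membrane substrates, had 7.70, 7.82, 7.69 and 8.16 in prKO, against 6.02, 6.45 and 6.87 in WT, and rose 2.57-fold (1.36 ± 0.14). The inhibitor genes Timp1 (2.05-fold) and Timp2 (1.46-fold) and the proteoglycan-cleaving Adamts15 (1.84-fold) also had all prKO arrays above WT. Timp3 (-0.10 ± 0.11) and Mmp14 (0.06 ± 0.13), which activates the gelatinase, did not pass the test. Of 10 mineralisation genes 4 rose: the phosphatase gene Alpl had 9.17, 8.33, 8.59 and 9.48 in prKO, against 7.42, 7.58 and 7.85 in WT (2.45-fold, 1.29 ± 0.15), and bone sialoprotein, Ibsp, rose 1.74-fold (0.80 ± 0.12). Alpl kept its call under all 24 alternatives described below, but its log2 change went down to 0.83. Mgp, an inhibitor of calcification, rose by 0.76 ± 0.18 but not with WT replicates 1 to 4 as the only controls (adjusted p = 0.19).

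The contractile genes of peritubular myoid cells mostly did not pass the test against all WT arrays. Acta2 had 11.84, 11.51, 11.64 and 11.85 in prKO, against 11.60, 11.68 and 12.46 as lowest, median and highest WT value (-0.07 ± 0.12, limma adjusted p = 0.77), and Myh11 was at -0.07 ± 0.22. Of 10 myoid genes 1 rose, Smtn (0.53 ± 0.16), with no prKO array above all WT arrays and no call against WT replicates 1 to 4 alone. With WT replicates 5 to 8 as the only controls 7 of the 10 were called higher; among the 23 collagen and crosslinking genes 19 were called higher in that fit. Without WT replicate 4, whose myoid score was 1.28, 4 of the 10 were called higher, and Acta2 (0.03, adjusted p = 0.81) and Myh11 (0.12, adjusted p = 0.46) still did not pass the test.

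Growth factor genes of the mesenchyme rose in part. Of 14 genes of the insulin-like growth factor axis 7 rose and 0 fell. Igf1 had 10.10, 9.87, 9.78 and 10.41 in prKO, against 8.65, 8.79 and 9.11 as lowest, median and highest WT value, and rose 2.26-fold (1.18 ± 0.14, limma adjusted p = 1.3e-05). The binding protein gene Igfbp4 had 10.27, 10.11, 10.06 and 10.45 in prKO, against 8.79, 8.98 and 9.46 in WT, and rose 2.32-fold (1.21 ± 0.11), and the insulin receptor gene Insr rose 1.72-fold (0.78 ± 0.09). In these 3 genes no prKO array overlapped WT. Igfbp5 (1.42 ± 0.31) and Igf1r (0.34 ± 0.10) were not called against WT replicates 1 to 4 alone, and Igf2 did not pass the test (-0.02 ± 0.14). Of 20 genes of TGF-beta and BMP signalling 5 rose and 0 fell: Tgfb1 had 8.88, 8.66, 8.82 and 8.66 in prKO, against 7.72, 7.89 and 8.08 in WT (1.83-fold, 0.87 ± 0.07, adjusted p = 2e-07), Tgfb3 rose 1.48-fold and the co-receptor gene Tgfbr3 1.55-fold. Tgfb2 (0.80 ± 0.18) was called, but not against WT replicates 1 to 4 alone.

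Macrophage genes were called higher in 5 of 17, 3 of them against both WT sets. The haemoglobin scavenger receptor gene Cd163 had 5.79, 5.81, 5.88 and 6.26 in prKO, against 4.88, 5.03 and 5.17 as lowest, median and highest WT value, and rose 1.89-fold (0.92 ± 0.08, limma adjusted p = 4.1e-07). The mannose receptor gene Mrc1 rose 1.80-fold (0.85 ± 0.15) and Csf1r, the receptor on which macrophages depend, 1.55-fold (0.63 ± 0.12), whereas Adgre1, a macrophage surface marker, did not pass the test (0.35 ± 0.18, adjusted p = 0.24). Against WT replicates 5 to 8 alone Adgre1 was called higher (0.65, limma adjusted p = 0.0039). The macrophage scores of prKO, 0.18, 0.20, 0.19 and 0.43, overlapped those of WT, the highest of which was 0.22. Of 6 genes for antigen presentation by MHC class II, 0 were called in the limma fit (0 also at an unadjusted p below 0.05), and in each of the 4 prKO arrays the score lay between -0.13 and 0.02. The mast cell protease gene Cpa3 was 1.41 ± 0.38 higher, and lost its call against WT replicates 1 to 4 alone. Of 7 adipose genes 1 rose, the droplet coat gene Plin1 (0.55 ± 0.16), which had no call with WT replicates 1 to 4 as the only controls (adjusted p = 0.2), and the defining Adipoq did not pass the test (0.09 ± 0.11); 1 WT array, replicate 2, had the highest adipose score (0.68). The part of immune and fat cells in the other results was not tested.

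**Figure D4:**
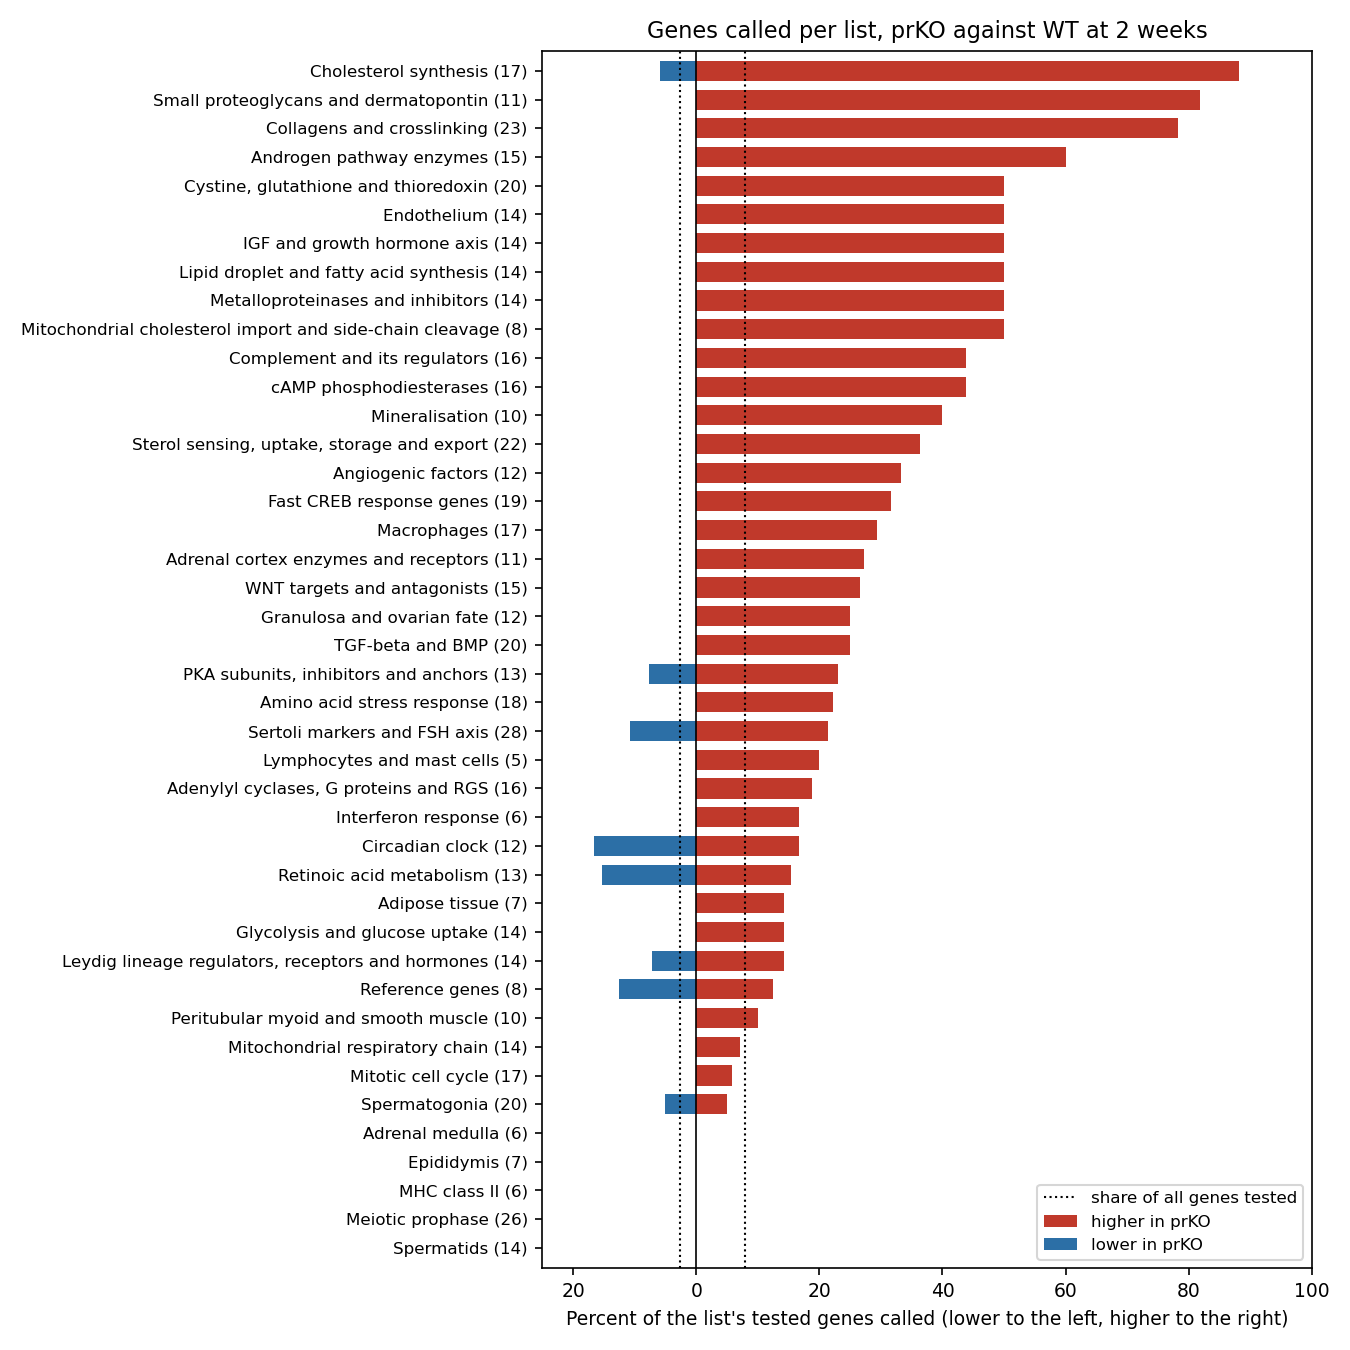
Percent of each gene list's tested genes (number in brackets) called higher (right, red) or lower (left, blue) in prKO at 2 weeks, with dotted lines at the shares of all genes tested, 7.9% and 2.59%. Cholesterol synthesis (15 of 17 higher), small proteoglycans (9 of 11) and collagens (18 of 23) stand at the top, and meiotic and spermatid genes had 0 calls. The lists were chosen with earlier results of these data known, so the dotted lines do not test them.

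Of 14 Leydig lineage genes outside the steroid enzymes 2 were called higher and 1 lower, beside 7.9% and 2.59% of all genes tested. Nr5a1, the lineage regulator of steroid-producing cells, had 9.51, 9.37, 9.21 and 9.49 in prKO, against 8.34, 8.51 and 8.64 as lowest, median and highest WT value, and rose 1.88-fold (0.91 ± 0.07, limma adjusted p = 5.1e-08). It is also the gene that the Sf1:Cre transgene follows, and whether transgene sequence adds to its signal was not tested. Vcam1, an adhesion protein, rose by 0.78 ± 0.16 but not with WT replicates 1 to 4 as the only controls (adjusted p = 0.072). Ptch1, the receptor and target of Sertoli-derived hedgehog, had 9.03, 9.11, 8.73 and 8.78 in prKO, against 9.28, 9.49 and 9.83 in WT, and fell 1.50-fold (-0.59 ± 0.12, adjusted p = 0.0023), with all prKO arrays below WT. The other hedgehog targets Gli1 (-0.02 ± 0.15) and Hhip (-0.36 ± 0.27), and the lineage factors Gata4 (0.18 ± 0.10) and Nr2f2 (0.11 ± 0.13), did not pass the test.

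Of 28 Sertoli cell and follicle-stimulating hormone genes 6 rose and 3 fell. Fshr, the receptor of that hormone, had 8.41, 8.60, 8.30 and 7.96 in prKO, against 8.83, 8.97 and 9.38 as lowest, median and highest WT value, and fell 1.62-fold (-0.69 ± 0.12, limma adjusted p = 0.00044). Gdnf, the growth factor that keeps spermatogonial stem cells, had 5.44, 5.46, 5.11 and 5.45 in prKO, against 5.53, 5.74 and 5.89 in WT, and fell 1.27-fold (-0.34 ± 0.08, adjusted p = 0.0086). Amh, a hormone of immature Sertoli cells, was also below WT in all prKO arrays (-0.59 ± 0.18, adjusted p = 0.046), but was called against neither WT set alone (adjusted p = 0.071 and 0.11) nor without WT replicate 4 (adjusted p = 0.0503). Fshr and Gdnf kept their calls against both sets. The inhibin subunit gene Inha had 10.86, 10.99, 11.01 and 10.82 in prKO, against 10.13, 10.45 and 10.60 in WT, and rose 1.44-fold (0.53 ± 0.09), and the dopamine receptor gene Drd4 rose 1.70-fold (0.77 ± 0.15), both with all prKO arrays above WT. Inhbb (0.37 ± 0.09), Tsx (0.84 ± 0.26) and Aqp8 (0.40 ± 0.12) were not called against WT replicates 1 to 4 alone, and Tsx also lost its call without WT replicate 4 (adjusted p = 0.052). The identity factors Sox9 (-0.21 ± 0.12), Wt1 (0.06 ± 0.07) and Dmrt1 (-0.02 ± 0.08), and the activin subunit gene Inhba (0.21 ± 0.19), did not pass the test.

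Retinoic acid drives germ cells into meiosis, and of 13 genes of its metabolism 2 rose and 2 fell. Aldh1a2, which makes retinoic acid, had 9.09, 9.06, 9.32 and 9.10 in prKO, against 9.37, 9.63 and 9.79 as lowest, median and highest WT value, and fell 1.39-fold (-0.47 ± 0.09, limma adjusted p = 0.0011) against both WT sets. Cyp26b1, which degrades it, had 8.91, 9.06, 8.57 and 8.43 in prKO, against 9.06, 9.30 and 9.40 in WT, and fell 1.43-fold (-0.52 ± 0.11), but was not called with WT replicates 1 to 4 as the only controls (adjusted p = 0.063). Aldh1a1, the synthesizing enzyme of Sertoli cells, rose by 0.44 ± 0.12 and Dhrs3, which returns retinaldehyde to retinol, by 0.52 ± 0.12, and both lost their calls against WT replicates 1 to 4 alone.

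Genes of ovarian fate gave 3 of 12 higher and 0 lower. Foxl2, which defines granulosa cells, had 5.67, 5.65, 5.45 and 5.50 in prKO, against 5.24, 5.53 and 5.66 as lowest, median and highest WT value (0.05 ± 0.07, limma adjusted p = 0.73). Rspo1, which amplifies WNT signals, rose 1.65-fold (0.72 ± 0.11) with all prKO arrays above WT, whereas Wnt4 did not pass the test (0.24 ± 0.11), except without WT replicate 4 (0.32, adjusted p = 0.0069) or against WT replicates 5 to 8. Fgfr2 was 1.52 ± 0.33 higher; the prKO range of 8.76 to 9.58 took in WT replicate 4 (9.40), and the call was lost against WT replicates 1 to 4. Of 15 WNT targets and antagonists 4 rose, among them the secreted proteins Dkk3 (2.06-fold, 1.04 ± 0.12), Sfrp1 (0.70 ± 0.17) and Wif1 (0.56 ± 0.13), and Dkk3 was the 1 member called against both WT sets. The target genes Axin2 (0.09 ± 0.09) and Lef1 (-0.16 ± 0.15) did not pass the test.

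Cell cycle genes were called in 1 of 17. Cdkn1a (p21), an inhibitor of the cycle, had 8.52, 8.64, 8.87 and 8.51 in prKO, against 7.05, 7.42 and 8.07 as lowest, median and highest WT value, and rose 2.19-fold (1.13 ± 0.13, limma adjusted p = 9.8e-06) against both WT sets. Mki67 (0.07 ± 0.08) and Top2a (-0.16 ± 0.07), which are expressed in dividing cells, did not pass the test. Of 12 circadian clock genes 2 rose and 2 fell: the repressor gene Bhlhe40 had 7.89, 7.66, 7.80 and 8.20 in prKO, against 7.08, 7.13 and 7.42 in WT (1.64-fold, 0.71 ± 0.08). Arntl (0.42 ± 0.10), Cry1 (-0.43 ± 0.11) and Nr1d2 (-0.26 ± 0.07) were not called against WT replicates 1 to 4 alone.

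Few germ cell genes passed the test. Of 20 spermatogonial genes 1 was called lower and 1 higher; 17 had a negative log2 change, as had 53.7% of all genes tested. The spermatogonial scores of the prKO arrays, -0.12, -0.07, -0.14 and -0.19, lay below all WT scores, the lowest of which was -0.05. Lin28a, an RNA-binding protein of undifferentiated spermatogonia, fell by 0.34 on the log2 scale (adjusted p = 0.044) and was not called with WT replicates 1 to 4 as the only controls (adjusted p = 0.4). Etv5, a transcription factor of Sertoli cells and of the stem cells, had 8.01, 7.77, 7.72 and 7.81 in prKO, against 6.88, 7.32 and 7.60 as lowest, median and highest WT value, and rose 1.47-fold (0.56 ± 0.12, limma adjusted p = 0.0036). The stem and progenitor genes Gfra1 (-0.28 ± 0.19), Id4 (-0.45 ± 0.20) and Zbtb16 (-0.02 ± 0.12), and the differentiation genes Kit (-0.08 ± 0.07) and Stra8 (0.26 ± 0.11), did not pass the test.

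At 2 weeks the first germ cells are in meiotic prophase. Of 26 meiotic genes 0 were called in the limma fit against all WT arrays (9 lower at an unadjusted p below 0.05), with a median log2 change of -0.24; 0 were called against WT replicates 1 to 4, 9 were called lower against 5 to 8, and 6 without WT replicate 4. The meiotic scores of prKO, -0.47, -0.18, -0.04 and -0.42, overlapped those of WT, which ran over -0.45 in WT replicate 4 and -0.31 in replicate 1 up to 0.30. Spo11, which makes the breaks of meiotic recombination, had 7.33, 7.86, 8.04 and 7.00 in prKO, against 7.57, 8.46 and 9.02 as lowest, median and highest WT value (-0.85 ± 0.28, adjusted p = 0.054), and was called lower without WT replicate 4 (-0.97, adjusted p = 0.014). Piwil1 spanned 6.66 to 10.28 in WT alone and was at -0.98 ± 0.74, and Hormad1 (-0.55 ± 0.26) and Dmc1 (-0.18 ± 0.11) did not pass the test either. Ddx4 (-0.44 ± 0.17, adjusted p = 0.1) was called without WT replicate 4 (-0.54, adjusted p = 0.014) but not against all WT arrays. Of 14 spermatid genes 0 were called by limma (1 higher and 2 lower at an unadjusted p below 0.05), and Prm1 (-0.04 ± 0.10) and Tnp1 (0.01 ± 0.13) were near 0.

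The largest falls were smaller than the largest rises. Of the 10 genes at least 2-fold lower, 7 were small nucleolar or micro RNA genes or a gene model, which are not named, and the 15 largest falls below are those of the other genes. Sel1l3 had 6.00, 5.63, 5.71 and 5.53 in prKO, against 6.49, 6.85 and 8.65 as lowest, median and highest WT value, and fell 2.85-fold (-1.51 ± 0.35, limma adjusted p = 0.0085). Tnni3, the heart muscle troponin inhibitor, had 7.86, 8.97, 7.92 and 7.95 in prKO, against 9.26, 9.47 and 9.67 in WT, and fell 2.47-fold (-1.30 ± 0.17, adjusted p = 3e-05). Plbd1, a phospholipase of lysosomes, had 8.20, 8.84, 8.41 and 8.37 in prKO, against 9.37, 9.56 and 9.86 in WT, and fell 2.21-fold (-1.14 ± 0.15). All prKO arrays lay below WT in these genes, and with Prkar1a and the ubiquitin ligase gene Fbxo32 (-0.71 ± 0.21) they are the 5 of the 15 largest falls that were also called against WT replicates 1 to 4 alone. The other 10, among them the ribosomal protein gene Rpl10l, which is active in meiotic germ cells (-0.97 ± 0.30), the brain proteoglycan gene Bcan (-0.85 ± 0.21), the histone gene H2aw (-0.88 ± 0.24) and Tlcd1 (-0.88 ± 0.20), were not. The remaining 6, Tmem232, Ankrd60, Abca17, Galnt3, Tctex1d2 and Aym1, changed by -0.97 to -0.71. With its probe sets averaged, Tlcd1 also lost its call against all WT arrays (-0.33, adjusted p = 0.051).

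**Figure D5:**
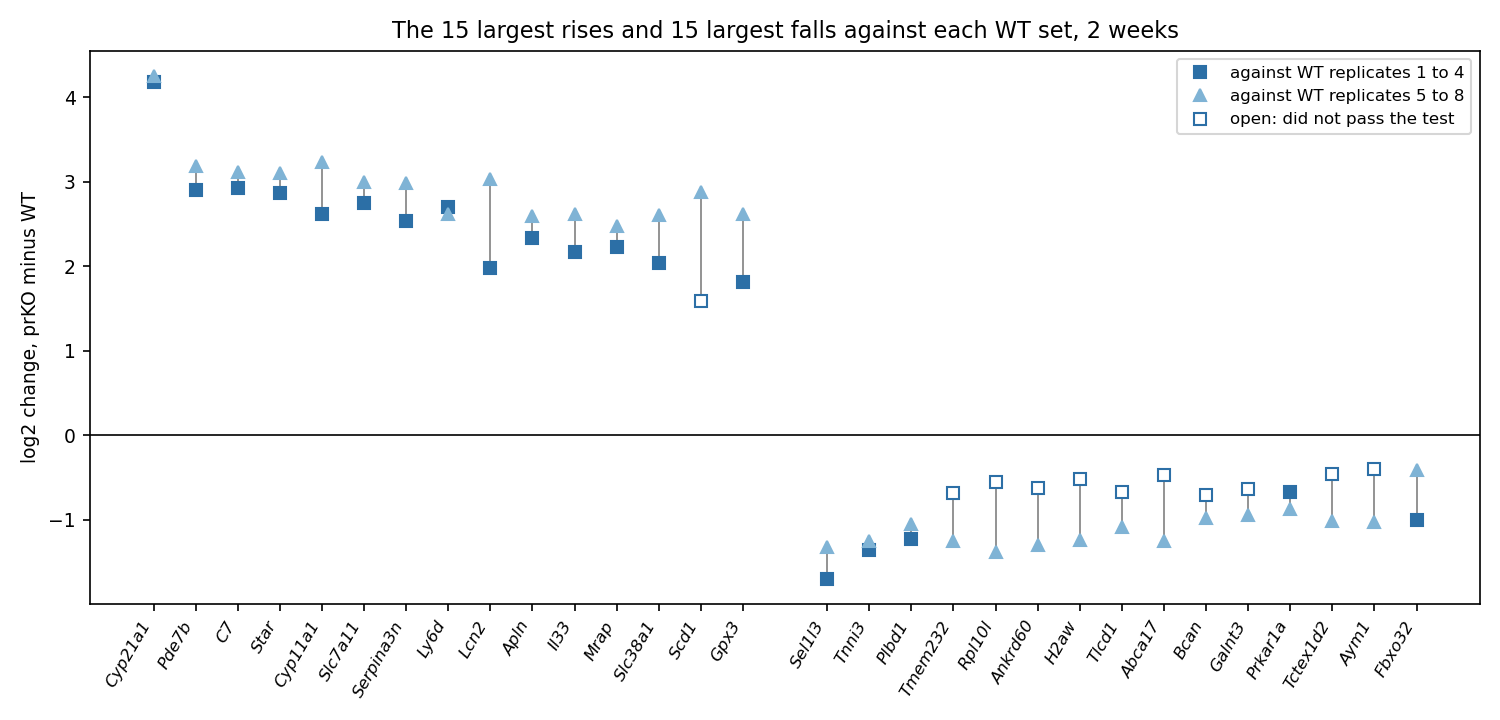
log2 change of prKO against WT replicates 1 to 4 (squares) and against WT replicates 5 to 8 (triangles) for the 15 largest rises and 15 largest falls, with open symbols for changes that did not pass the test. Among the rises only Scd1 is open (1.58 against WT replicates 1 to 4), whereas 10 of the 15 falls are open against replicates 1 to 4.

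The srKO line, in which Amh:Cre removes Prkar1a in Sertoli cells, is the nearest comparison. The direct test of prKO against srKO at 2 weeks called 1312 genes (6.9%) higher and 922 (4.85%) lower in prKO. The largest difference was in Cyp21a1, whose srKO arrays all lay below the filter value, so that it was at least 3.99 log2 units higher in prKO than in srKO (limma adjusted p = 1.2e-08). The 10 largest also included Slc7a11 (3.01), Lcn2 (2.93), Col6a5 (2.86), Cyp11a1 (2.75) and Cd36 (2.60). Serpina3n, C7, Scd1 and Il33 complete these 10, and Star was 2.38 higher (adjusted p = 1.2e-05). Prkar1a was lower in prKO than in srKO by a smaller step (-0.29, adjusted p = 0.025). Some cAMP genes did not differ beyond the test: Prkar2b (0.06, adjusted p = 0.83), Sik1 (0.04, adjusted p = 0.9), Inha (0.09, adjusted p = 0.63) and Nr4a1 (0.42, adjusted p = 0.076), whereas Pde7b (1.16, adjusted p = 0.0025), Pde10a (0.75, adjusted p = 0.0038), Dhcr7 (0.34, adjusted p = 0.024) and Scarb1 (0.36, adjusted p = 0.0077) were higher in prKO. The rises of Pde7b and Pde10a were in part shared by srKO, which was 1.87 and 1.28 above WT (limma adjusted p = 4.9e-05 for each). Among the 10 largest differences in the other direction were the small cytoplasmic RNA genes Rny1 (-1.74, adjusted p = 0.0065) and Rny3 (-1.65), the RNA gene Zfas1 (-1.11), Tlcd1 (-1.06) and Tnni3 (-1.06). Rny1, Rny3 and Zfas1 were not called in prKO against all WT arrays. Their prKO change was -0.11, -0.21 and -0.03 against WT replicates 1 to 4, and -1.57, -1.30 and -0.93 against 5 to 8. Whether what separates the WT sets also enters the prKO minus srKO step in these genes was not tested. The comparison was called for 12 of the 17 cholesterol synthesis genes and 15 of the 23 collagen and crosslinking genes as higher in prKO, and for 0 of either list as lower.

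At 2 months the same contrast was measured in 3 prKO and 8 WT arrays of older animals, and the difference between the ages was tested in the fit of all 8 groups. It called 3011 genes (15.8%) with a higher and 2340 (12.3%) with a lower change at 2 months; with each array centred on its median these were 2269 and 2846. Of the 155 genes at least 2-fold higher at 2 weeks, 134 were also called higher in prKO at 2 months, where 26.5% of all genes were called higher; 22 had a larger and 34 a smaller change there. Cyp21a1 (3.37 at 2 months, 4.22 at 2 weeks with WT below the filter value; adjusted p of the difference = 0.096), Pde7b (2.71 and 3.04), Star (2.22 and 2.98), Ly6d (2.59 and 2.66) and Mrap (2.59 and 2.35) did not differ beyond the test. Cyp11a1 (1.89 at 2 months, adjusted p of the difference = 0.00098), Slc7a11 (0.92), C7 (1.42) and Pde10a (0.10, adjusted p of the difference = 4.5e-10) changed less at 2 months. Nr4a1 was called lower than WT at 2 months (-0.63, adjusted p = 0.00093), opposite to its rise at 2 weeks, and Nr4a3 (-0.19) and Cyp17a1 (0.31) did not pass the test there. Timp1 (3.71 at 2 months), Dpt (4.65), Mmp2 (4.07) and the drug exporter gene Abcb1b (4.60, against 1.47 at 2 weeks) changed more at 2 months, whereas Col6a5 (2.34 and 2.10, adjusted p of the difference = 0.68) did not differ beyond the test. Ctla2a, whose WT arrays lay below the filter value at both ages, was at least 12.5-fold higher in prKO at 2 months and at least 1.35-fold higher at 2 weeks. Prnd, the doppel gene, was at -3.97 at 2 months and at -0.39 (adjusted p = 0.074) at 2 weeks, and Hsd3b6 was at -3.15 at 2 months and at -0.51 at 2 weeks.

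The 4 prKO arrays resembled each other (mean correlation within the group 0.989 to 0.991, across genes, which are not independent replicates) but were not equally far from WT. Replicate 4 was the highest prKO array in 123 of the 155 genes at least 2-fold higher, and replicates 2 and 3 were the lowest in 61 and 60. Among reference genes, Actb (-0.01 ± 0.07), Gapdh (0.12 ± 0.07) and Hprt (0.06 ± 0.09) did not pass the test. Of 16 genes for adenylyl cyclases, G proteins and their regulators 3 rose and 0 against both WT sets, and 2 of 14 glycolysis genes and 1 of 14 respiratory chain genes rose. Gusb (0.74 ± 0.14) was called higher and Tbp (-0.38 ± 0.12) lower, neither of them against WT replicates 1 to 4 alone.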

How the data were processed

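Whole-testis RNA of 4 prKO and 8 WT mice at 2 weeks was labelled for arrays with the Affymetrix WT PLUS method, per the labels' protocols. The deposited values are log2 intensities, which the authors normalized with RMA, per the submitters' processing notes. Of 41345 probe sets, 23521 had 1 gene symbol, 1814 several and 16010 none, and only the first kind was used, with the probe set of highest mean for each of 22180 genes. Genes were tested (19007) where at least 1 of the 8 group means passed the 25th percentile, 4.62. One limma (3.58.1, R 4.3.3) model, lmFit and eBayes, was fitted to the 4 genotypes at 2 weeks, and all 39 arrays were fitted for the difference between ages; p-values were adjusted by Benjamini-Hochberg over all tested genes with a threshold of 0.05, and ± in the text is the SE of the fit. The same fits were run against WT replicates 1 to 4 and 5 to 8. The procedure was tested on simulated data with independent noise, without a difference between WT sets and without an array like WT replicate 4. That test therefore cannot tell how these features of the real arrays affect the calls. The named genes are Prkar1a, the 15 largest rises and falls, the key members and up to 5 further members of 43 lists, and the 10 largest differences each way against srKO and between ages, passing over gene models and small nucleolar and micro RNA genes. The members and lists were chosen with earlier results of these data known. Acly, Bgn, Ebp, Egr1, Eln, Fdft1, Gdnf, Ggps1, Gli1, Hsd17b10, Igf2, Lbr, Lss, Mmp14, Mvd, Mvk, Npc1, Plin2, Pmvk, Srebf1 and Timp3 are list members outside that rule and were chosen after their values were seen. Genes with no probe set of a single symbol were not analysed here. Alternatives changed the filter, probe set choice, normalization, weights, arrays in the fit and pairing, and left out each array in turn.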

Additional observations from a re-analysis of the deposited data

Results flagged for a closer look

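A sample was singled out when its gap to the nearest array of its group was large against the group's whole range (Dixon's test at the 95% level), and chance alone singles out about 1 in 20 groups. All values are log2 intensities at 2 weeks. Each gene named here was checked in the prKO and in the WT group, so chance alone would single out part of the values. Of the 60 single-gene array values singled out, 32 were of WT replicate 4, always as the highest WT array. Its collagen and crosslinking values were 12.16 for Col1a1, 11.62 for Col3a1, 8.97 for Col4a1, 8.87 for Col4a2, 9.22 for Col6a5, 8.92 for Col12a1 and 8.98 for Lox. Its proteoglycan values were 8.79 for Aspn, 12.18 for Bgn, 8.85 for Lum and 8.05 for Vcan, and the protease gene Mmp2 had 10.20. Its contractile genes stood at 12.46 for Acta2, 11.87 for Myh11 and 9.27 for Smtn. The growth factor axis gave 9.46 for Igfbp4, 8.89 for Igfbp5 and 8.56 for Insr, and the receptor genes Fgfr2 and Kdr had 9.40 and 8.67. Secreted and immune genes gave 9.13 for Lcn2, 7.50 for Il33, 10.53 for Serping1, 8.14 for Gpx3 and 6.44 for Cpa3. The remaining genes in which this array stood high were Axin2 at 7.96, Bhlhe40 at 7.42, Dhrs3 at 8.18, Fbxo32 at 9.39, Npc2 at 9.34, Nr4a3 at 6.46 and Pde1a at 7.20. Counts and medians without this array stand beside the matrix results above.

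The prKO array singled out most often was replicate 4, the highest of its group, with 11.78 for Star, 10.09 for Ly6d, 10.18 for Fdft1, 9.01 for Sqle, 7.93 for Tm7sf2, 9.31 for Msmo1, 10.79 for Acly, 8.85 for Aspn, 11.27 for Mgp and 9.83 for Aldh1a7. In prKO replicate 1, Egr1 (7.30) and Gata4 (9.57) were high and Dkk3 (7.84) was low. In prKO replicate 2, Tnni3 (8.97) and Tnp1 (5.24) were high, and in replicate 3 Aldh1a2 (9.32) was high and Gdnf (5.11) low. Among the other WT arrays, replicate 2 was high in C7 (8.49), Adipoq (5.42), Aldh1a7 (8.17) and Xdh (6.82). WT replicate 3 was high in Asns (9.17) and Timp2 (10.72), replicate 5 in C4b (6.17) and replicate 8 in Nr4a1 (8.34), whereas replicate 1 was low in Lipe (6.35), replicate 6 in Hsd3b1 (7.64) and replicate 7 in Msmo1 (7.83).

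The change in prKO differed between the ages in 5351 genes, by limma in the fit of all 8 groups. The difference, change at 2 months minus change at 2 weeks, was 0.48 for Prkar1a, so its fall was smaller at 2 months. It was positive, with 3.13 in Abcb1b, 3.58 in Ctla2a, 2.67 in Timp1, 2.47 in Dpt and 2.42 in Mmp2. In Ctla2a all WT arrays of both ages lay below the filter value, so the size of its difference rests on WT values that were not measured well. It was negative, with -3.58 in Prnd, -2.64 in Hsd3b6, -1.95 in Slc7a11, -1.93 in Pde10a, -1.73 in Nr4a1, -1.59 in C7, -1.55 in Cyp17a1, -1.18 in Nr4a3 and -1.04 in Cyp11a1.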

How the results depend on the processing

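Of 255 genes named, 180 were called, and 98 of these kept their call under all 24 alternatives; 0 changed direction while called. The other 75 were not called, and 49 of these stayed so throughout. Among them 22 were called against WT replicates 5 to 8 alone and 2 against replicates 1 to 4 alone. Against 1994 genes called in prKO against WT, the count was 3834 with array weights (1976 shared with the 1994), 1241 with only the groups compared in the fit, 723 against WT replicates 1 to 4 alone (676 shared) and 4802 against WT replicates 5 to 8 alone (1902 shared). Leaving out each array in turn gave 1298 (without prKO replicate 1) to 3119 (without WT replicate 4), and 1335 without prKO replicate 4. For prKO minus srKO (2234) the count was 3650 with array weights and 1415 (without prKO replicate 4) to 1858 with arrays left out. For the age difference (5351) no alternative moved the count by over 1.5 times. Prkar1a stayed between -0.88 and -0.68 and was called throughout. Numbers shared by prKO and WT arrays do not pair them by any label, and their deviations correlated at 0.34, 0.25, -0.11 and 0.10 for numbers 1 to 4; with the replicate number as a block 598 genes were called (532 higher, 66 lower, 569 shared), in a fit in which WT replicates 5 to 8 have no prKO partner. The causes of these shifts were not tested, beyond the smaller number of arrays where arrays were left out. The signal over background limits genes near the filter value, and 4 prKO arrays limit the precision of every change.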

Other observations

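The genes of this paragraph were chosen after their values were seen, from the genes called higher in prKO at 2 weeks, and they support nothing said above. Several made or handled cofactors and small molecules of the liver and steroid gland kind. Alas1, the first enzyme of haem synthesis, was 1.54 ± 0.11 higher in prKO, Papss2, which makes the sulfate donor for steroid sulfation, 1.53 ± 0.14, the alcohol dehydrogenase gene Adh1 2.08 ± 0.23, the aldehyde dehydrogenase gene Aldh1a7 1.90 ± 0.12 and the xanthine dehydrogenase gene Xdh 1.99 ± 0.16 (log2 change ± SE). The lipase genes Lpl and Lipg, which act on lipoproteins at the vessel wall, were 1.69 ± 0.17 and 1.24 ± 0.20 higher. Of these 7 genes, 7 were called against both WT sets. Under the alternatives described above, Adh1 and Lpl kept their calls, but the log2 change went down to 1.09 and 1.04. The lymphatic vessel genes Lyve1 (1.54 ± 0.20) and Vegfd (1.42 ± 0.15), the second a lymphatic growth factor, were also called higher against all WT arrays.

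Small nucleolar RNA genes, which guide modification of ribosomal RNA, made up 3.65% of the genes called lower. Of 74 tested 18 were called lower and 0 higher, and 0 were called lower against both WT sets by limma. Their median log2 change was -0.30 against all WT arrays, -0.18 against WT replicates 1 to 4 and -0.40 against WT replicates 5 to 8. They are described here because a list of falls ordered by size is led by them, and neither their part in whole-testis RNA nor the cause of the difference between the WT sets was tested.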
